A study of Mus musculus with 6 samples.

Results

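Surface markers that tell apart the progenitor subsets of adipose tissue were compared between sorted preadipocytes with high and low binding of FcsFNDC4. FcsFNDC4 is the secreted part of the hepatokine FNDC4 fused to the Fc part of a human antibody. The 10 genes were Dpp4, Pi16, Cd55, Cd34, Icam1, F3, Cd248, Eng, Cd24a and Thy1, taken by name as markers of these subsets. Each had exactly 1 transcript cluster (a group of probes read together) that was annotated to it alone, so 10 of the 19938 genes with such a cluster were members. HBC (high binding cells) and LBC (low binding cells) were sorted to search for genes tied to binding of the ligand, and both came from immortalized stromal vascular cells that male mice of the strain 129SVE had in their inguinal white fat. Both were stained with 100 nM of FcsFNDC4, sorted and regrown 20 times, and expanded without further treatment before RNA was taken at passage 20. RNA of 3 technical replicates of 1 HBC population and 3 of 1 LBC population was hybridised to Affymetrix mouse gene arrays, so every p-value measures the spread between technical replicates. No sorted progenitor subset and no unsorted culture was part of the design. The titles, descriptions and phenotypes of all 6 samples name their group, while for LBC replicates 2 and 3 the field for the source says HBC, and the titles were followed. Over genes, arrays of 1 group correlated at r of at least 0.996, and arrays of different groups at r of at most 0.986. Without those 2 arrays, which left 1 LBC array that was assumed to vary like the HBC arrays, the log2 fold change of Cd248 was 0.89 and the log2 fold change of Eng was 0.90, with limma's adjusted p at 7.92e-05 and 7.61e-05, and again 2 members were called.

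Stromal cells of white fat are not uniform. Interstitial progenitors, marked by Dpp4, Pi16 and Cd55, lie in the connective tissue around the fat and are held to be the least committed. Committed preadipocytes carry Icam1 and stand close to becoming fat cells. Cells with F3 on their surface have been described as regulators that restrain adipogenesis in their neighbours. Cd34, Thy1, Eng, Cd248 and Cd24a are used more broadly to pick out stromal or progenitor cells, and several of them are also found on endothelial cells, pericytes or leukocytes.

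Of the 10 members, 2 were called higher in HBC and none lower, beside 2.54% and 1.13% of all genes tested. Cd248 and Eng were those 2. The call asked for an adjusted p under 0.05 from limma and a fold above 1.5, on log2(intensity + 16). Another 4 members passed the adjusted p with a smaller fold, F3 and Pi16 toward HBC and Cd34 and Cd24a toward LBC. Counted at the adjusted p alone, 4 members were higher and 2 lower, where 6.93% and 11.4% of all genes were. Dpp4, Cd55, Icam1 and Thy1 passed neither. The 3 HBC arrays all lay above the 3 LBC arrays for 4 members (Cd248, Eng, F3 and Pi16), as they did for 10.1% of all genes, and all below them for 4 (Cd34, Cd24a, Thy1 and Cd55), as for 25.1%. The median log2 fold change of the 10 members was -0.02, against -0.07 over all genes. In arrays of a culture, fewer cells that carry a marker and less transcript per cell cannot be told apart.

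**Figure D1:**
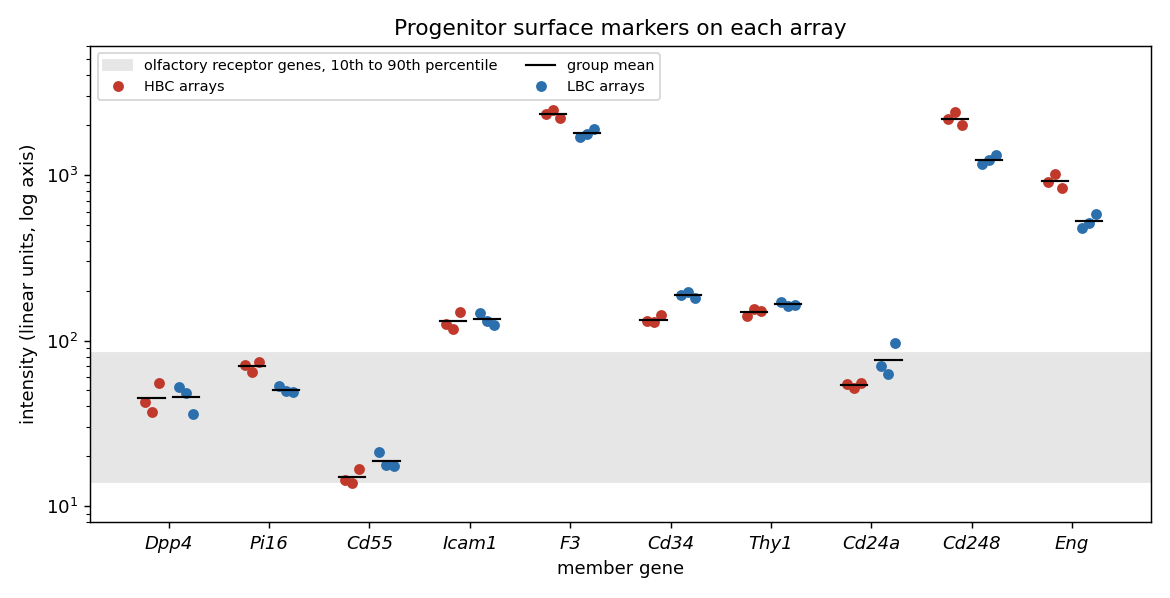
Intensity of each member (linear units, log axis) on the 3 HBC arrays in red and the 3 LBC arrays in blue, with black lines at the group means and the 10th to 90th percentile of olfactory receptor genes in grey. Cd248 and Eng lie higher on every HBC array, Dpp4 and Icam1 overlap, and Dpp4, Pi16, Cd55 and Cd24a have both means inside the grey range.

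For 3 members, the bases before the start of transcription are shown, from RefSeq on GRCm38.p6, 5′ to 3′ on the strand of the gene. They are Eng, the called member with an entry among 7 members matched, and Icam1 and F3, the markers after which committed and regulatory progenitors are named here; each window holds the 250 bases that end just before the start. Eng lies on chromosome 2 (window chr2:32646345-32646594), Icam1 on chromosome 9 (chr9:21015690-21015939) and F3 on chromosome 3 (chr3:121723287-121723536), all on the plus strand. Capitals mark any of 6 motifs on either strand. These were the GC box, spelled GGGCGG, the box bound by the TATA-binding protein, searched as TATAAA, and the CCAAT box. The others were the E-box, in the form CACGTG, the site of AP-1 factors, written as TGANTCA, and the GAS element that STAT factors bind, TTCNNNGAA.
Eng: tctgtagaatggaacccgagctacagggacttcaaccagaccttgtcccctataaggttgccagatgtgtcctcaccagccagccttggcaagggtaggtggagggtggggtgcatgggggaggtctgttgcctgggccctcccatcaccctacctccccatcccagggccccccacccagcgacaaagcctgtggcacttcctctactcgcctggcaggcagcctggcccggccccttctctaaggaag
Icam1: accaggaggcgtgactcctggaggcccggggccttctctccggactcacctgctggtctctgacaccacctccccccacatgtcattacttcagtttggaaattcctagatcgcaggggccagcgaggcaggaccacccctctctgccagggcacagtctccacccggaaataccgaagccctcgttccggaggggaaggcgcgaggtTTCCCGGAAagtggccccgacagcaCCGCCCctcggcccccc
F3: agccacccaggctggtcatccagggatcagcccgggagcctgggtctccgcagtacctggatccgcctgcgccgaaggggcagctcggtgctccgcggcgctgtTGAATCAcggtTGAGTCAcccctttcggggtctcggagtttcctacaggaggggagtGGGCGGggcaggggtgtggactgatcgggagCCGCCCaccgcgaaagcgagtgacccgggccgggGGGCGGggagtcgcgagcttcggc
The Eng window held none of the 6 motifs. Icam1 had 1 GC box starting 17 bases before the start and 1 GAS element at 42 bases, which do not overlap. F3 had 3 GC boxes, at 89, 58 and 24 bases, and 2 stretches of the AP-1 letters, at 146 and 135 bases. Of 32851 mouse promoter windows of this length, 32.7% held the GC box, 7.02% the GAS element and 6.75% the AP-1 letters, while the TATA box was in 12.4%, the CCAAT box in 33.8% and the E-box in 6.02%. A match describes the letters and not binding. Other members with windows were Dpp4 (1 TATA box), Pi16 (1 CCAAT box), Cd55 (2 GC boxes) and Cd34 (none of the 6).

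Cd248 encodes endosialin, a C-type lectin-like transmembrane protein of stromal fibroblasts and pericytes. Its intensity was 2169, 2387 and 1999 on HBC arrays 1, 2 and 3, and 1167, 1231 and 1311 on LBC arrays 1, 2 and 3. The lowest HBC array thus read above the highest LBC array. The means were 2185 ± 195 (SD, n = 3) and 1237 ± 72.1 (SD, n = 3), a ratio of 1.77. On the log2 scale HBC exceeded LBC by 0.81 (95% interval 0.63 to 0.99, SE 0.089), with an adjusted p of 2.4e-08 in limma. Endosialin belongs to a small family with thrombomodulin, of whose 3 other genes 1 was called, beside 3.67% of all genes called in either direction. Clec14a, known mainly from endothelial cells, read 867 ± 46.5 in HBC and 215 ± 9.76 in LBC and was called higher, by 1.93 on the log2 scale with limma's adjusted p at 1.8e-17. Thbd (thrombomodulin itself, 0.33) and Cd93 (-0.24) were not called.

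Eng encodes endoglin, an accessory receptor for BMP9, BMP10 and other TGF-beta family ligands that is used as a mesenchymal stromal marker and is abundant on endothelium. HBC arrays 1, 2 and 3 read 901, 1008 and 838, and LBC arrays 1, 2 and 3 read 481, 515 and 580, with no overlap. The means were 916 ± 85.6 (SD, n = 3) and 525 ± 50.3 (SD, n = 3), a ratio of 1.74, and the difference was 0.78 on the log2(intensity + 16) scale (95% interval 0.60 to 0.97, SE 0.092), with an adjusted p of 9.1e-08 in limma. As a ratio the interval began at 1.51, just past the fold asked for. Among 13 other genes of the endoglin pathway, ligands, receptors, SMAD proteins and ID targets, none was called, beside 3.67% of all genes called in either direction. At the adjusted p alone, the receptors Tgfbr3 (betaglycan, the closest relative of endoglin, log2 fold change 0.58) and Tgfbr2 (0.37) were higher, and Smad1 (-0.40), Smad9 (-0.42) and the target Id2 (-0.33) were lower. The signalling partners Acvrl1 (0.14) and Bmpr2 (-0.02) and the target Id1 (-0.06) did not pass. Tgfbr3 lay close to the fold threshold, and was called higher after quantile, cyclic loess or median scaling, and also without HBC replicate 3 or without LBC replicate 3. It was called higher too with an added 1 in place of 16, a floor at 16 or array weights.

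F3 encodes tissue factor, the cell surface starter of blood clotting. Its intensity was 2315, 2479 and 2197 on HBC arrays 1, 2 and 3 and 1702, 1755 and 1883 on LBC arrays 1, 2 and 3. The groups did not overlap, and the ratio of means, 2331 ± 142 against 1780 ± 93.2 (SD, n = 3 each), was 1.31. The difference on the log2 scale was 0.39 (SE 0.086, with an adjusted p of 0.0014 in limma), and the upper end of its 95% interval, 0.56, lies below a fold of 1.5. With the methods' t-test, adjusted p was 0.055. None of the 6 other tissue factor pathway genes measured was called, beside 3.67% of all genes called in either direction. Tfpi, the inhibitor of tissue factor, had a log2 fold change of 0.03, F2r, a thrombin receptor, 0.23, and Procr, the protein C receptor, 0.22.

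Icam1, the adhesion ligand of leukocyte integrins and the marker of committed preadipocytes, read 125, 118 and 149 on HBC arrays 1, 2 and 3 and 146, 132 and 124 on LBC arrays 1, 2 and 3. The 2 groups overlapped. Its log2 fold change was -0.03 (95% interval -0.22 to 0.15, adjusted p = 0.84 from limma), so ratios below 0.86 or above 1.11 lie outside the interval on this scale. Its sign turned under quantile (0.04), cyclic loess (0.06) and median scaling (0.04). None of 7 related adhesion ligands and linkers to the cytoskeleton was called, beside 3.67% of all genes called in either direction. Their log2 fold changes ran from -0.18 to 0.12, among them Vcam1 at 1046 ± 95.7 in HBC and 1053 ± 85.8 in LBC.

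Cd34, a sialomucin of blood and stromal progenitors, read 130, 129 and 142 on HBC arrays 1, 2 and 3 and 189, 196 and 181 on LBC arrays 1, 2 and 3. All HBC arrays were below all LBC arrays, and the means, 134 ± 6.81 and 189 ± 7.29 (SD, n = 3 each), had a ratio of 1.41 for LBC over HBC. The difference on the log2 scale was -0.45 (SE 0.084, with an adjusted p of 1.9e-04 in limma), short of the fold asked for. Podxl and Podxl2, the other genes of its family, had log2 fold changes of -0.15 and -0.06. Within each array, the log2 difference of Cd248 minus Cd34 was 3.87 ± 0.19 in HBC and 2.61 ± 0.12 in LBC (SD, n = 3 each), without overlap, and that of Eng minus Cd34 was 2.63 ± 0.19 and 1.40 ± 0.17. These differences show that the markers changed unequally and say nothing of which is the more abundant transcript.

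Thy1, a GPI-anchored glycoprotein of fibroblasts, neurons and T cells, read 140, 155 and 152 on HBC arrays 1, 2 and 3 and 171, 162 and 164 on LBC arrays 1, 2 and 3. HBC were lower on every array, by little. The log2 fold change was -0.14 (95% interval -0.31 to 0.03, adjusted p = 0.28 from limma).

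The remaining 4 members were dim. Olfactory receptor genes, which cultured preadipocytes are not known to use, were taken as a reference for dim signal, and 1015 of them had group means from 13.8 to 84.4 in HBC and 13.9 to 86.3 in LBC (10th to 90th percentile). Both group means of Dpp4, Pi16, Cd55 and Cd24a lay inside that range, so no fold is read from them. The 3 surface markers of interstitial progenitors, Dpp4, Pi16 and Cd55, were therefore dim in HBC and LBC alike, whereas Icam1 and F3 read above the range in both groups. Of the 17 other interstitial genes read below, 3 were dim in both groups. Icam1 (131 and 134) read close to the leukocyte gene Cd3e (143 and 140). Cd34 (134 and 189) and Thy1 (149 and 166) likewise read near the level of the leukocyte gene Itgam (159 and 189). A mean above the range thus does not by itself show expression. Dpp4, a cell surface peptidase that trims chemokines and incretins, read 42.6, 36.8 and 55.1 on HBC arrays 1, 2 and 3 and 52.1, 47.9 and 35.9 on LBC arrays 1, 2 and 3, with overlap (adjusted p = 0.95 from limma). Pi16, a peptidase inhibitor of the CAP family, read 71.5, 64.9 and 73.9 in HBC and 53.2, 49.8 and 48.9 in LBC, HBC being higher on every array (adjusted p = 0.0019 from limma, and 0.057 without LBC replicates 2 and 3). Cd55, which protects cells from complement, read 14.4, 13.9 and 16.7 in HBC and 21.3, 17.8 and 17.4 in LBC, HBC being lower on every array by little (adjusted p = 0.19 from limma). Cd55 has a close tandem copy, Cd55b, with a cluster of its own, and how the probes part the pair was not tested. Cd24a, a small mucin-like GPI-anchored protein of progenitors and B cells, read 54.6, 51.5 and 55.3 in HBC and 70.5, 62.6 and 96.0 in LBC. HBC were lower on every array and LBC replicate 3 stood above the other two, with adjusted p = 0.0056 from limma. That value was not stable, with adjusted p from 1.9e-04 to 0.23 over the 21 alternatives, and whether processed copies of Cd24a in the mouse genome share its probes was not tested.

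Families of 3 of the dim markers were read as well, beside 3.67% of all genes called in either direction. Of the 8 other prolyl peptidases related to Dpp4, none was called. Fap, the fibroblast activation protein, read 33.9 ± 2.08 in HBC and 25.4 ± 1.19 in LBC, also inside the dim range. Among the 7 other CAP family genes measured, the relatives of Pi16, none was called, nor was any of the 4 other membrane regulators of complement beside Cd55. With so few genes, counts of 0 lie near the share over all genes.

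**Figure D2:**
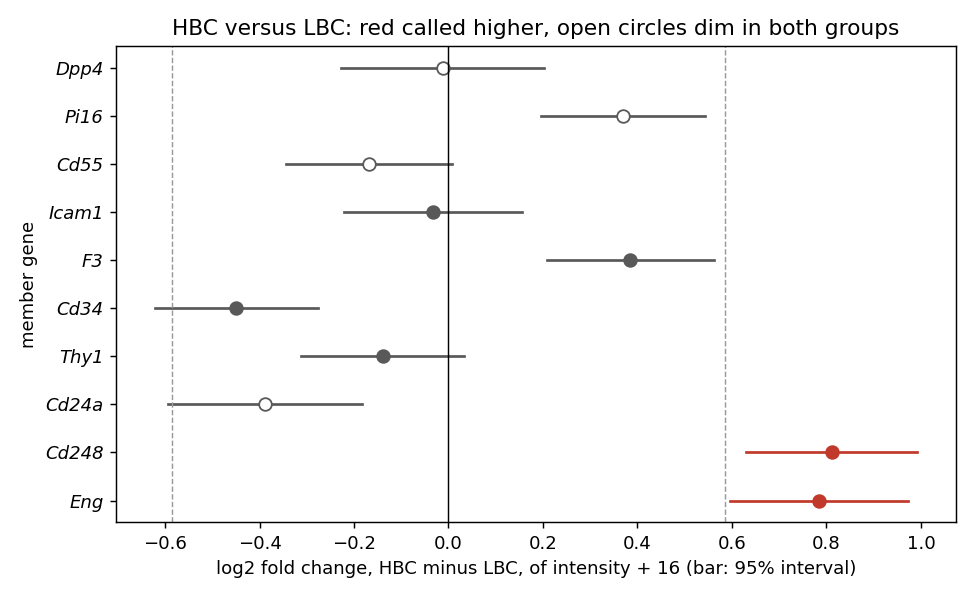
Change on the log2 scale, HBC against LBC after adding 16 to each intensity, of the 10 members with 95% intervals from limma over 3 arrays per group; dashed lines mark a fold of 1.5 either way. Cd248 (0.81) and Eng (0.78) in red were called higher, F3 (0.39) and Cd34 (-0.45) lie between 0 and the dashed lines, and open circles are the 4 members dim in both groups.

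The arrays of a group did not scatter independently among most of the members. Cd248, Eng and F3 all read highest on HBC replicate 2 and lowest on HBC replicate 3, and highest on LBC replicate 3 and lowest on LBC replicate 1. Dpp4, Pi16, Cd55, Cd34 and Icam1 ran the other way in HBC, highest on replicate 3 and lowest on replicate 2, and all 5 were lowest on LBC replicate 3. The median intensity over all clusters was 122 on HBC replicate 2 and 132 on HBC replicate 3. Cd24a ran with these 5 in HBC, but read highest on LBC replicate 3 and lowest on LBC replicate 2. Thy1 followed neither order, being lowest on HBC replicate 1 and on LBC replicate 2. The values of most members, though not of all, therefore share a component. Its part in the members' differences was not tested. The within-array difference of F3 minus Icam1, 4.00 ± 0.24 in HBC and 3.58 ± 0.18 in LBC (SD, n = 3 each), overlapped between the groups. No such difference is read for Dpp4, which was dim in both.

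Further genes of the 3 subsets, from lists of textbook and published markers, were read in the same fit. In the list of committed preadipocytes, 5 of 14 genes besides Icam1 were called higher and none lower, a share of 35.7% beside 3.67% of all genes called in either direction, with a median log2 fold change of 0.36. Sparcl1, a matrix protein related to SPARC, rose from 193 ± 8.19 in LBC to 1128 ± 40.2 in HBC (log2 fold change 2.45, adjusted p = 7.8e-20 from limma). Aoc3, a surface amine oxidase, read 428 ± 15.9 in HBC and 80.4 ± 7.77 in LBC (2.21 on the log2 scale). Lpl, the lipoprotein lipase that frees fatty acids from triglycerides, read 1961 ± 59.7 in HBC and 537 ± 38.9 in LBC (1.84). All of these were higher on every HBC array, as was Ggt5, a gamma-glutamyltransferase, at 256 ± 8.05 and 69.4 ± 4.19 (1.67). Col15a1, a basement membrane collagen and the fifth of them, was at 679 ± 37.6 and 248 ± 21.1 (1.40) and is named after its value was seen. In LBC, Aoc3 and Ggt5 were inside the dim range, so the size of their rise is uncertain. The adipogenic genes Pparg (0.33) and Fabp4 (0.42) passed the adjusted p without the fold, and Dlk1, a preadipocyte inhibitor of differentiation, did not pass (-0.13). Icam1 itself was among the 10 of 15 genes of its list that were not called.

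In the list of regulatory progenitors, 2 of 12 genes besides F3 were called higher, where 2.54% of all genes were, and 10 were not called, with a median log2 fold change of 0.02. Cygb, the gene of cytoglobin, rose from 160 ± 7.56 in LBC to 906 ± 4.14 in HBC (2.39, adjusted p = 1.1e-19 from limma), and Rspo2, a secreted enhancer of Wnt signalling, from 411 ± 22.5 to 730 ± 81.2 (0.80, adjusted p = 4.9e-08 from limma). Clec11a (-0.02) and Gdf10 (0.03), which are used to define these cells, were not called, nor was Fmo2, which was dim in both groups. Abcg1 (0.44, adjusted p = 2.3e-04 from limma) and Mgp (0.25, adjusted p = 0.045 from limma) of this list were higher at the adjusted p without the fold. In the list of interstitial progenitors, 2 of 17 genes besides Dpp4, Pi16 and Cd55 were called higher and 1 lower, beside 2.54% and 1.13% of all genes, with a median of -0.12. The matrix glycoprotein Emilin2 read 1297 ± 41.9 in HBC and 701 ± 86.3 in LBC (0.88 on the log2 scale). Ackr3, a chemokine scavenger, read 136 ± 8.46 in HBC and 74.0 ± 2.98 in LBC (0.76), its LBC mean lying inside the dim range. Uchl1, a ubiquitin hydrolase, was the lower one, at 85.0 ± 1.37 and 152 ± 15.6 (-0.73). Bmp7 (-0.12) and Anxa3 (-0.34), other marks of the interstitial cells, were not called, nor was Wnt2, which was dim in both groups. Counted at the adjusted p alone, 4 of the 17 were higher and 4 lower, where 6.93% and 11.4% of all genes were. Igfbp6 (0.47) was among the higher and Anxa3 among the lower. Sema3c, a secreted semaphorin at 0.56 on the log2 scale (ratio of means 1.53), lay near the fold threshold. It was called higher after any of the 3 scalings and without HBC replicate 3 or LBC replicate 3. Sema3c was also called with an added 1 in place of 16, a floor at 16 or array weights. Whether 1 of the 3 lists moved more than another was not tested, and the lists were chosen with earlier results of these data known.

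**Figure D3:**
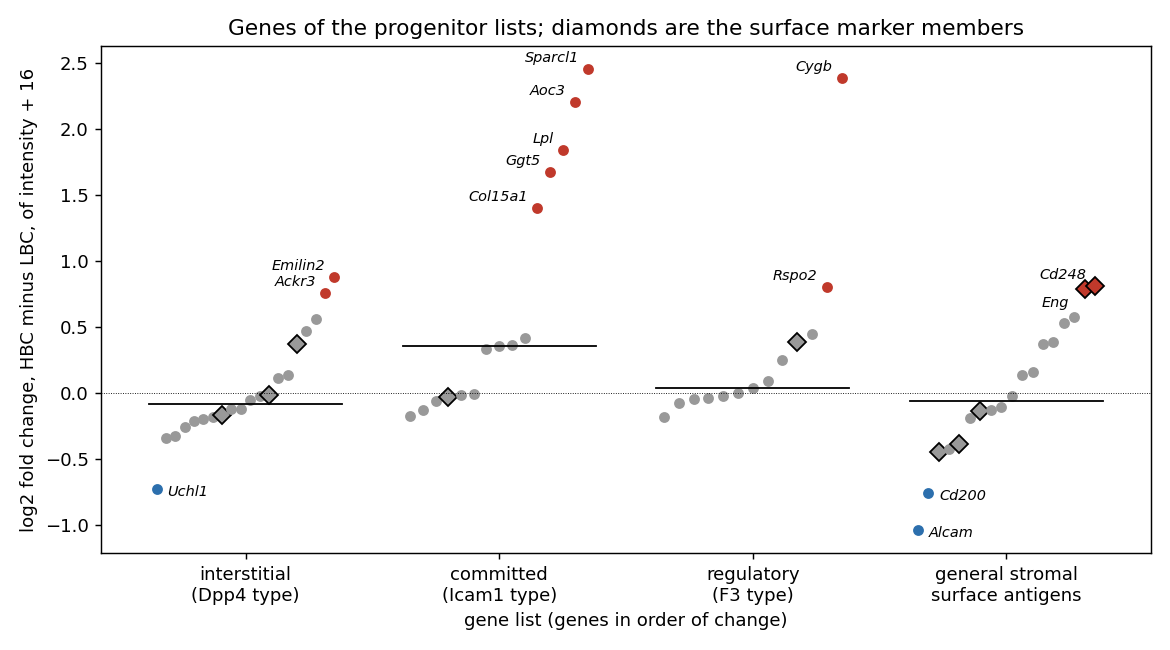
Change on the log2 scale, HBC against LBC after adding 16 to each intensity, of the measured genes in 4 lists, in order of change within each list, with a black line at the list's median; red genes were called higher in HBC, blue lower and grey neither, and diamonds are members. Committed preadipocyte genes hold 5 called genes, from Col15a1 (1.40) to Sparcl1 (2.45), while the diamonds of Dpp4, Pi16, Cd55, Icam1 and F3 are all grey.

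Among general stromal surface antigens, 2 of the 13 measured besides the members were called, both lower in HBC, where 1.13% of all genes were called lower and 2.54% higher. Alcam, an adhesion molecule of mesenchymal and epithelial cells, read 866 ± 19.3 in HBC and 1808 ± 228 in LBC (-1.04, adjusted p = 2.4e-10 from limma), while Cd200, a ligand that restrains myeloid cells, read 49.3 ± 5.87, inside the dim range, and 94.5 ± 8.02 (-0.76, adjusted p = 1.1e-07 from limma). Both stand with Cd34 and against Cd248 and Eng in the direction of their change. The platelet-derived growth factor receptors that define fat progenitors were bright in both groups, Pdgfra at 4096 ± 265 and 3166 ± 280 (0.37) and Pdgfrb at 2699 ± 122 and 1874 ± 191 (0.53), and neither was called. Pdgfrb (adjusted p = 4.8e-05 from limma) and Ly6e, a GPI-anchored antigen at 0.57, lay near the fold threshold. Both were called higher after median scaling (0.60 and 0.64) and without LBC replicate 3 (0.60 and 0.63). Ly6e was also called higher without HBC replicate 3 or with array weights. Not all called genes of the list were then lower. Ly6a had no cluster to itself.

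The label of the cells as preadipocytes was read against their markers. The means of Pdgfra, Pdgfrb, Dlk1, Pparg and Fabp4 were above the dim range in both groups, while 3 of the 5 measured genes of mature fat cells were inside it in both groups. Those were Adipoq (43.0 ± 0.52 and 40.7 ± 4.91), Cidec and Lep, whereas Plin1 (136 and 137) and Retn (187 and 120) read above it. Markers of other cells that can carry Eng, Cd34, Cd248, Thy1 or Cd24a were read too, and 1 gene of the 6 lists was called. Over all genes, 3.67% were called in either direction, and with so few genes per list counts of 0 lie near that share. Of 9 endothelial genes, none was called and 8 were inside the dim range in both groups, Pecam1 (60.6 ± 10.7 in HBC and 64.0 ± 11.4 in LBC) and Cdh5 (57.1 ± 2.53 and 69.3 ± 4.46) included; their summed intensity ran from 669 to 763 in HBC and from 685 to 801 in LBC. Of 10 leukocyte genes, none was called and the sum ran from 937 to 1000 and from 1017 to 1144. Of 8 pericyte and smooth muscle genes, none was called and the sum ran from 5161 to 5628 and from 5326 to 6249, with Acta2 at 4261 ± 238 and 4182 ± 412. At the adjusted p alone, Tagln (-0.56) and Rgs5 (-0.49, its HBC mean inside the dim range) of this list were lower in HBC. Tagln was called lower without HBC replicate 2 or without LBC replicate 1, and Rgs5 with intensities floored at 16. Leukocyte sums were thus lower on every HBC array, as were the mesothelial sums below, where 25.1% of all single genes lay lower on every HBC array. The endothelial and pericyte sums overlapped. Of the 10 leukocyte genes, 4 were inside the dim range in both groups. None of 6 epithelial genes was called, with sums from 614 to 695 and from 679 to 739, and none of 5 genes of mature fat cells, with sums from 449 to 497 and from 386 to 457. Retn, a fat cell gene at 0.58 on the log2 scale (ratio of means 1.55), lay near the fold threshold. It was called higher after any of the 3 scalings and without HBC replicate 2 or 3 or LBC replicate 1 or 2. Retn was also called with an added 1 in place of 16, a floor at 16 or array weights. Of 6 mesothelial genes, Msln was called lower in HBC (72.6 ± 2.26 against 187 ± 5.48, log2 fold change -1.20, its HBC mean inside the dim range) and 5 were not called, with sums from 901 to 931 in HBC and from 932 to 982 in LBC. The part of such cells in the members' differences was not tested.

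Genes that neighbour the members on the chromosome were read in the same fit. Of the 60 nearest measured genes, 3 on each side of every member in RefSeq order, 2 were called higher and none lower, a share near the 2.54% and 1.13% of all genes. They were Ifih1, an RNA sensor induced by interferon (1091 in HBC and 179 in LBC, log2 fold change 2.50), and Slc44a3 (241 and 75.7, log2 fold change 1.49). Ifih1 comes after Dpp4 with Gcg and Fap between them. Slc44a3 comes before F3 with A730020M07Rik and 4930432M17Rik between them. None of these genes in between was called. The LBC mean of Slc44a3 lay inside the dim range, so the size of its rise is uncertain. None of the neighbours of Cd248 or Eng was called. The genes whose values ran most like those of Cd248, the member with the largest change, were Ifitm3, Adamts1 and Rnf114, with Pearson r of 0.9997, 0.9995 and 0.9991 over the 6 arrays (log2 fold changes of 0.65, 1.08 and 0.75). With 2 groups and a shared scatter such values are common, and 10.4% of the 12709 genes with a mean intensity above 100 had an r above 0.9.

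**Figure D4:**
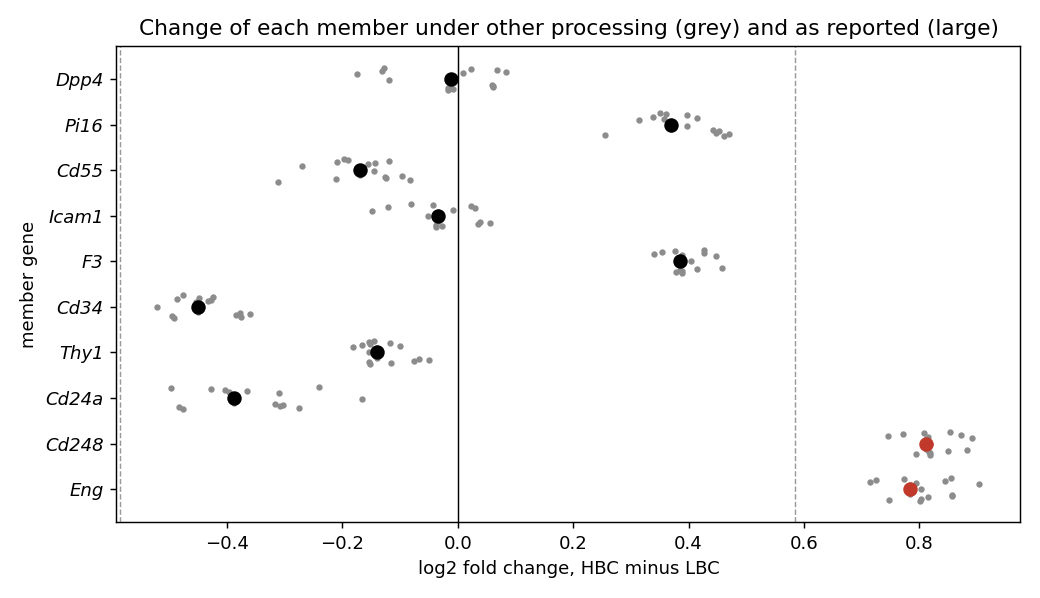
Log2 fold change of each member as reported (large points, red where called) and under the other ways of processing (small grey points, 21 for the 4 dim members and 23 for the others); dashed lines mark a fold of 1.5. Cd248 stays between 0.75 and 0.89 and Eng between 0.71 and 0.90, and the points of Dpp4 and Icam1 lie on both sides of 0.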

How the data were processed

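The authors made the deposited values, intensities on a linear scale for 35556 transcript clusters, with Affymetrix Expression Console per the labels; of its version, its summary method and any scaling between arrays, each is not given in the sources used here. A newer gene array is named in the methods than the one whose annotation matched the identifiers. The number of arrays limits the precision. Clusters with 1 gene symbol (21789) were kept; for a gene with several, the brightest over the 6 arrays was used.

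The test was run on log2(intensity + 16) with limma 3.58.1 in R 4.3.3 (lmFit, eBayes) over 19938 genes, HBC minus LBC, with Benjamini-Hochberg adjustment over all of them. The added 16 shrinks the changes of dim genes, and 24.9 prior against 4 residual degrees of freedom make small adjusted p-values optimistic. Called genes had a fold past 1.5 and an adjusted p below 0.05. The script was tested on simulated data.

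Members, gene lists and the dim reference were chosen with earlier results of these data known. Named are the members, up to 4 called genes per list, called neighbours and the 3 genes most like the member with the largest change; genes named for identity, role or a value near the threshold were picked after their values were seen. Alternatives covered added values, a floor, scaling, filters, the methods' t-test, variance priors, weights, choice of cluster, a replicate block, thresholds and leaving out arrays; leaving out LBC replicates 2 and 3 together was chosen after seeing the data. Promoter windows came from RefSeq. Binding and RT-qPCR data were not analysed here.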

Additional observations from a re-analysis of the deposited data

How the results depend on the processing

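Cd248 and Eng were called under every setting run except a fold above 2, where 0 members were called; without a fold threshold 6 were. Scaling turned the sign of the log2 fold change of Dpp4 (to 0.0607 after quantile, 0.0618 after cyclic loess and 0.0596 after median scaling) and of the log2 fold change of Icam1 (to 0.0355, 0.0558 and 0.0386). Leaving out an array gave log2 fold changes from -0.131 to 0.0838 for Dpp4 and from -0.121 to 0.0298 for Icam1. Apart from the change of fold threshold, no other member changed sign or call. The committed list had 5 genes called higher, 3 when means above 100 in both groups were asked for (Aoc3 and Ggt5 were then not tested) and 9 without a fold threshold. The interstitial list had 2, and 1 with that filter, 5 without a fold threshold, 0 at a fold above 2 and 4 without LBC replicates 2 and 3. The interstitial count was 3 with an added 1, a floor at 16, any of the 3 scalings or array weights. This count was also 3 without HBC replicate 3 or without LBC replicate 3, and Sema3c was the added gene each time. The regulatory list had 2, and 5 without a fold threshold and 1 at a fold above 2. Of 13 other named genes, none changed sign. Cd200 and Uchl1 lost their call with an added 50, where their log2 fold changes of -0.54 and -0.58 fell short of a fold of 1.5. A shared replicate number did not mean shared deviations from the group means (r of -0.096, -0.24 and -0.50), and with the replicate block 2 members were called and no count for a list moved by over 1.5 times. The array weights stopped before convergence, with a weight of 53.5 on LBC replicate 2. Dim signal limits Dpp4, Pi16, Cd55 and Cd24a, which the filter in the methods removes.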
